A study of Bos taurus with 9 samples.

Results

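Bovine nucleus pulposus cells kept for 24 h in added salt were compared with untreated cells, on 6 of the 9 arrays of the series: 3 of salt-treated and 3 of untreated cultures. Arrays entered by their label alone, and no measured value was used to choose them. Per the labels, the cells came from the nucleus pulposus of caudal intervertebral discs of young calves and were plated in DMEM with 10% FBS, which all groups share. Salt solution raised the treated cultures to 500 mOsm/kg for 24 h, and the untreated cultures received none. The other 3 arrays, of cells held at the same osmolality for 5 h, entered the fit to share its estimate of spread and are quoted only beside the 24 h values. No time in culture is given for the untreated cells, so salt and time in culture cannot be told apart, and the same 3 untreated arrays are the reference for both times. The labels call the arrays of a group biological replicates without saying whether they are separate animals, and the p-values therefore reflect only how these cultures vary.

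The nucleus pulposus is the hydrated core of the disc, and its cells sit in a matrix whose fixed charge draws in ions and water, so they live at an osmolality above that of most tissues. Cells in hypertonic medium first lose water and take up inorganic ions, and later replace these ions with small organic osmolytes such as sorbitol, inositol, betaine and taurine. The transcription factor NFAT5 is known to drive many of the genes for this exchange, including the aldose reductase gene AKR1B1.

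Expression is given as intensity on a linear scale, and changes are differences of log2(intensity + 16), 24 h minus control, ± the standard error of the fit. The added 16 damps the noise of dim probe sets and understates their changes. A probe set was called when its Benjamini-Hochberg adjusted p, over all 18012 probe sets tested, was under 0.05 in a limma fit with replicate number as a block, that is, a fit that compares arrays of the same number. A gene is represented by its brightest probe set, which gave 7916 genes. The array count, 3 a group, limits the precision.

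The 3 arrays numbered 3, with 1 in each group, stood apart from the other 6 on the first principal component, which held 47.7% of the variance. The second component, with 31.1%, placed the 24 h arrays at -52.0, -47.6 and -36.3 and the control arrays at 0.0107, 22.3 and 29.6, without overlap. The manufacturer's hybridisation control bioC read 779 to 913 on the arrays numbered 3 and 1317 to 1573 on the other 6, so those arrays differed in hybridisation signal in all 3 groups. The probe set for the middle of the EF1A control transcript read 235 to 538 on the arrays numbered 3 and 2890 to 6360 on the others, while those for its ends differed far less between these arrays. The probe set for the 5′ end of the actin control transcript, which falls with RNA degradation, was dim throughout and read 32.3 to 46 in control and 15.1 to 22.5 at 24 h, beside 304 to 384 and 205 to 365 for its 3′ end. The brighter GAPDH control read 11207 to 12188 at its 5′ end in control and 9898 to 10920 at 24 h. Its 3′ end read 10729 to 11527 and 10199 to 11008. For EF1A the 5′ end read 12898.5 to 14171 in control and 12693.5 to 14265 at 24 h. The EF1A 3′ end read 3052 to 3408.5 and 1716 to 2092. The part of RNA quality in the results was not tested. List counts are therefore also given without replicate 3, higher first and lower second, where either moved by more than 1.5 times. Over all probe sets that setting lowered the calls from 3302 and 3150 to 1721 and 1606, so a lower count is not particular to a list. Which step set these arrays apart was not tested.

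**Figure D1:**
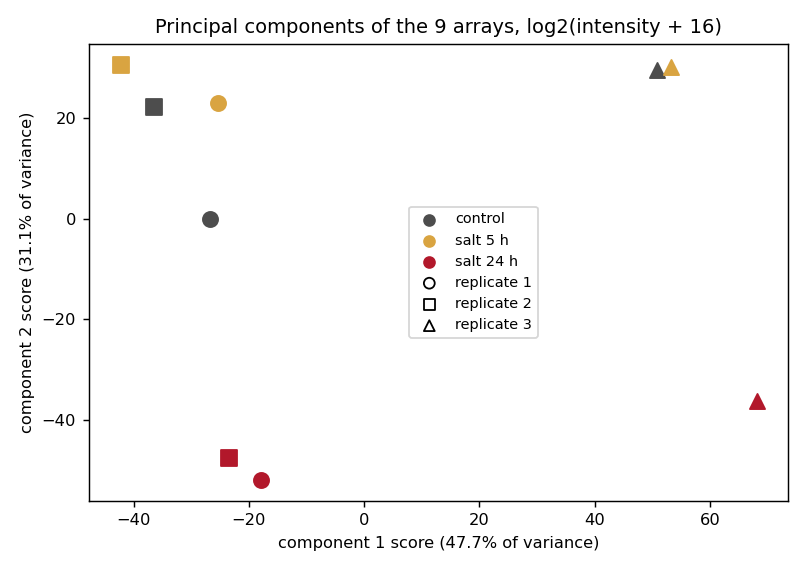
Scores of the 9 arrays on principal components 1 and 2 of log2(intensity + 16), with colour for the group and marker shape for the replicate number. The 3 arrays numbered 3 lie to the right, and the 3 salt 24 h arrays lie lowest, between -52.0 and -36.3 on component 2.

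The labelled cell type was checked against defining markers. Of 14 nucleus pulposus and notochord markers listed, 7 were on the array with a gene name. CDH2, an adhesion cadherin of these cells, read 1410.3, 1449 and 2056 in control and 1083, 1346 and 1732 at 24 h, and BASP1, a membrane-bound cytoskeletal protein, read 5139.8, 5751 and 5457 in control and 4869, 6047 and 5026 at 24 h. The keratins KRT8, KRT18 and KRT19 read 31.8 or less on all 6 arrays, as did SHH and SNAP25, so these defining markers were absent or near the floor. The cartilage proteoglycan gene ACAN was measured at 497 to 2139 in control, and COL2A1, the major cartilage collagen, at 40 to 330. The collagen genes COL1A1, COL1A2 and COL3A1 and tenascin C (TNC), which fibroblasts also express, were bright, with control means of 2952 to 12360. Markers of red cells and endothelium were dim, with summed intensities of 176 to 242 in control and 167 to 243 at 24 h for the 4 red cell genes, and of 142 to 222 and 184 to 244 for the 7 endothelial genes.

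At 24 h, 3302 probe sets (18.3% of those tested) were called higher than control and 3150 (17.5%) lower. Over genes the counts were 1575 higher (19.9%) and 1590 lower (20.1%), with 4751 not called. The list counts below are to be read beside these shares. The median size of a called change was 0.61, and the median change of all probe sets was 0.023. Changes of at least 1 on the log2 scale were called in 608 probe sets upward and 427 downward, and changes of at least 3 in 13 upward and 1 downward. The rises thus reached further than the falls. Of the called probe sets, 2017 that were higher and 2011 that were lower showed no overlap between the 24 h and the control values. Among all 18012 probe sets tested, called or not, 2497 lay without overlap above control and 2425 below. With 3 arrays a group, a lack of overlap is thus common. In the 25% of probe sets with the highest mean 20.8% were higher and 29.0% lower, and in the 25% with the lowest mean 12.9% and 6.77%. Without the replicate block 771 were higher and 779 lower, and without replicate 3 the counts were 1721 and 1606.

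**Figure D2:**
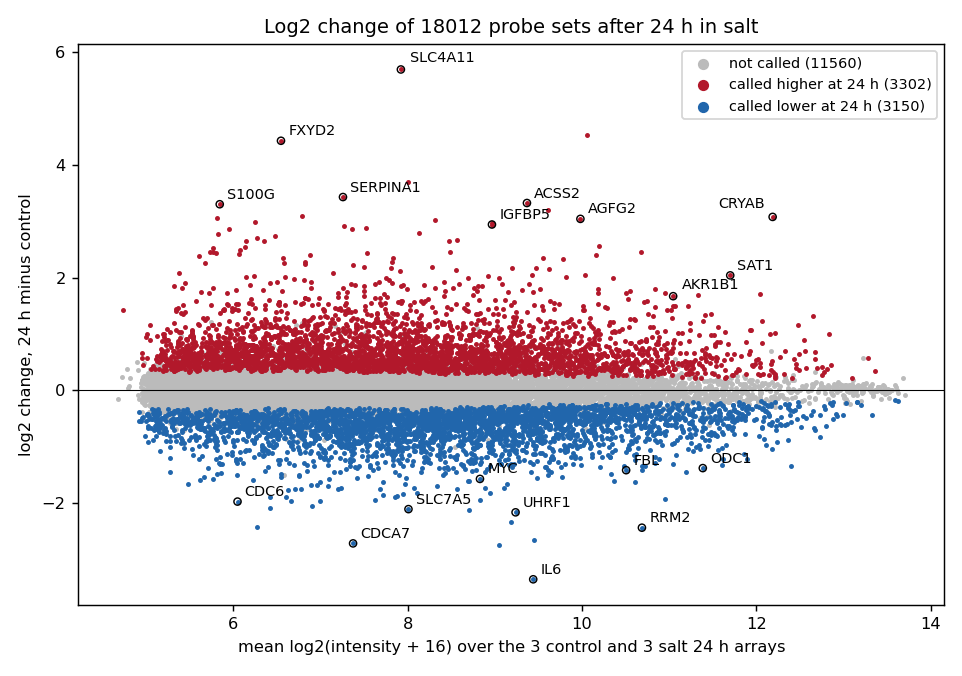
Log2 change (24 h minus control) of the 18012 tested probe sets against their mean log2(intensity + 16) over the 6 arrays. Red points are called higher (3302), blue points lower (3150) and grey points were not called. SLC4A11 lies highest at 5.70 and IL6 lowest at -3.36.

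The largest rises among named genes were in ion transport. SLC4A11, a plasma membrane transporter of the SLC4 family, read 29.2, 10.7 and 15.7 in control and 1805, 1914 and 1503 at 24 h. FXYD2, a small regulatory subunit of the sodium-potassium ATPase, read 5.6, 3.3 and 3.6 in control and 446, 670.3 and 242 at 24 h. All 24 h arrays lay far above all control arrays for both genes, and FXYD2 was at the floor in control. The changes were 5.70 ± 0.26 (adjusted p = 5.5e-06) and 4.43 ± 0.33 (adjusted p = 4.2e-05). The background potassium channel gene KCNK5 read 21.6, 14.8 and 19.4 in control and 249, 149 and 259.6 at 24 h, a rise of 2.73 ± 0.14 (adjusted p = 1e-05), with 5 h values of 216, 140.5 and 170.3. KCNK5 was thus high on all 6 salt arrays, whereas SLC4A11 read 99.9, 31.2 and 98.6 and FXYD2 17, 0.1 and 11.9 at 5 h.

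Without the replicate block or replicate 3 these 3 genes stayed called. In the ion and water transport list 10 of 36 genes (27.8%) rose and 4 (11.1%) fell (8 and 2 without replicate 3). All genes stood at 19.9% and 20.1%. The list's median was 0.12 beside 0.012 for all genes. The water channel gene AQP1 read 419.8, 143 and 469 in control and 735, 329 and 949.6 at 24 h. Its groups overlapped because replicate 2 was low in both, but each 24 h array exceeded the control array of its number, and the rise was 0.97 ± 0.12 (adjusted p = 0.00037, and 0.396 without the replicate block). SLC12A2, the sodium-potassium-chloride cotransporter that loads cells with chloride, rose by 0.85, the chloride channel CLCN7 of lysosomes by 0.51, and the potassium channel KCNJ2 by 0.64. SLC20A1, a sodium-dependent phosphate importer, fell by 0.88, from 2465 ± 122 to 1332 ± 68.5. The beta subunits of the sodium-potassium ATPase stood at 0.08 for ATP1B1 and 0.09 for ATP1B3 and were not called, as was the osmosensitive calcium channel TRPV4 at -0.08.

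Osmolyte genes and known NFAT5 targets were mostly higher, with 8 of 13 called upward, 1 downward (5 and 1 without replicate 3) and a median of 0.39. AKR1B1, which reduces glucose to sorbitol, read 1163, 1380.5 and 999.7 in control and 3570.1, 4809 and 3087 at 24 h. All 24 h values lay above all control values, and the rise of 1.67 ± 0.088 (adjusted p = 1.2e-05) was 3.18-fold. SORD, which oxidises sorbitol to fructose, went the other way and was the list's called fall: it read 49.2, 53.9 and 61.6 in control and 20.4, 18.5 and 22.2 at 24 h and fell by 0.96 (adjusted p = 0.00051). The inositol monophosphatase gene IMPA2, which releases free inositol, rose by 0.56 from 28.7 to 50, and its homologue IMPA1 was not called at -0.24. The serum- and salt-responsive kinase gene SGK1 read 890.4, 519 and 851 in control and 1142, 1237 and 1630 at 24 h, a rise of 0.83 (adjusted p = 0.0088), which was not called without replicate 3 (0.065) or without the block (0.063). SLC38A2, a neutral amino acid transporter, rose by 0.31, with values of 6578, 5507 and 6840 in control and 7239, 7314 and 8982 at 24 h that did not overlap; this call was lost without the block (adjusted p = 0.164) and without replicate 3 (0.12). The taurine transporter SLC6A6 was dim, at 26.5 in control and 29.6 at 24 h, and was not called (0.11). PNPLA6, an esterase that makes the osmolyte glycerophosphocholine, rose by 0.83, but another of its probe sets was called in the opposite direction. SLC5A3 and SLC6A12, the inositol and betaine transporters, and NFAT5 itself have no probe set with a single gene name here and were not analysed.

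Several small heat shock proteins rose, and subunits of the chaperonin that folds newly made proteins fell. The chaperone list held 7 rises and 9 falls among 24 genes, with a median of -0.16. CRYAB, the small heat shock protein alpha-B crystallin, read 2369.5, 1691 and 1003 in control and 13375, 14235 and 13054 at 24 h. The groups did not overlap, and the rise was 3.08 ± 0.21 (adjusted p = 3.4e-05). Its 24 h values lay near the top of the range of the arrays, whose highest value, of TNC, was 15435, and saturation was not tested. HSPB2, a small heat shock gene that neighbours CRYAB in mammals, read 228, 224 and 224 in control and 619, 856 and 599 at 24 h and rose by 1.53 ± 0.16. HSPA2 rose by 0.73, HSPB6 by 0.66 and the cochaperone BAG3 by 0.38. HSPB1 was not called, at 0.24 with adjusted p = 0.17, but was without the 24 h array of replicate 2 (0.0458). The chaperonin ring subunits CCT6A, CCT5, CCT8, CCT2 and CCT4, which fold actin and tubulin, changed by -1.02, -0.95, -0.64, -0.64 and -0.35. HSPA8, the constitutive member of the HSP70 family, changed by -0.83, from 9074 ± 847 to 5144 ± 1054, and HSP90AA1 by -0.50. The probe sets annotated to HSPA1A disagreed: 3 rose by 1.11 to 1.48 and 3 fell, with changes of -0.68 to -1.34, so the gene, which has near-identical copies, is reported as uncertain.

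Genes that copy DNA fell as a group. In the origin licensing and helicase list 15 of 18 genes were lower and 0 higher, with a median of -0.81. CDC6, which loads the replicative helicase on origins, read 88.1, 153 and 114 in control and 19.3, 16.8 and 15.9 at 24 h, a fall to near the floor and without overlap, with a change of -1.98 ± 0.18 (adjusted p = 8.9e-05). The origin recognition subunit ORC1 changed by -1.60, the licensing factor CDT1 by -1.33 and its inhibitor geminin (GMNN) by -1.46, and the helicase subunits MCM3, MCM4, MCM5, MCM6 and MCM7 by -1.36, -1.19, -1.23, -0.70 and -0.66. ORC2 and ORC6 were not called, at -0.19 and 0.08. Among polymerases, the clamp and ligase, 12 of 20 fell and 0 rose: POLE2 changed by -1.97, the flap endonuclease FEN1 by -1.47, the clamp loader RFC2 by -1.09 and the sliding clamp PCNA by -1.08, from 3660 ± 806 to 1713 ± 317. LIG1, POLA1 and PRIM1 were not called, at -0.48, -0.11 and 0.47. Of 7 genes of homologous recombination and Fanconi repair 4 fell, among them FANCI at -1.34, XRCC3 at -1.01 and BRCA1 at -0.67. Without the block 8, 6 and 1 genes of these 3 lists were called lower, and without replicate 3, 13, 10 and 2.

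Genes of deoxynucleotide supply and chromatin assembly also fell. Of 10 deoxynucleotide genes 9 were lower, with a median of -1.13, and DUT was not called. RRM2, the regulated subunit of ribonucleotide reductase, read 3193, 4601 and 3845 in control and 697, 819 and 578 at 24 h, so every 24 h value lay far below every control value. Its partner RRM1 changed by -1.09, thymidylate kinase (DTYMK) by -1.34, thymidine kinase TK1 by -1.21 and the dCTP pyrophosphatase DCTPP1 by -1.74. In the chromatin assembly list 11 of 13 fell. UHRF1, which carries DNA methylation to the new strand, read 727, 1326 and 2102 in control and 233, 210.2 and 393 at 24 h, and the methyltransferase DNMT1 fell by 0.86. The histone chaperones CHAF1B, ASF1B and NASP changed by -1.76, -1.40 and -1.21. CDCA7, a chromatin remodelling cofactor and the largest fall after IL6 among probe sets with a symbol, read 369, 522 and 359 in control and 43.7, 67.8 and 37.7 at 24 h, a change of -2.73 ± 0.12 (adjusted p = 5.5e-06). Lamin B1 (LMNB1), a nuclear envelope protein, fell by 1.37. Without the block 8 deoxynucleotide and 6 chromatin assembly genes were called lower. The clamp-associated factor PCLAF, which is among the brightest 5%, fell by 1.42, from 2767 ± 766 to 1003 ± 99.9.

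Cyclins fell across the cycle, with 14 of 16 lower, 0 higher and a median of -1.0. The G1 cyclins CCND1 and CCND2 changed by -1.46 and -1.28, the S-phase cyclins CCNE1, CCNE2 and CCNA2 by -0.98, -1.67 and -1.31, and the mitotic cyclin CCNB1 by -0.83. The kinase partner CKS1B fell by 1.02. CCND3 stood at 0.35 and CCNB2 at -0.55, neither called. MYBL2, a transcription factor of cycling cells, read 287, 676 and 291 in control and 120.1, 109.5 and 63.3 at 24 h, and E2F1 fell by 1.11. Of 26 kinetochore and spindle genes 24 were lower and 0 higher, such as the ubiquitin enzyme UBE2C at -1.31, the survivin gene BIRC5 at -1.18 and the Aurora kinases AURKA at -0.98 and AURKB at -0.78. The median in replicate pairs 1, 2 and 3 was -0.51, -0.71 and -1.23, and 12 genes of this list were called without replicate 3 and 7 without the block. The centromere genes CENPN and CENPI changed by -1.13 and -0.90. Of 9 condensin and cohesin genes 6 fell, with a median of -0.63, including NCAPG2 at -1.22, NCAPH at -1.04 and NCAPG at -0.74, and 2 were called without replicate 3. FBXO5, an inhibitor of the ubiquitin ligase that ends mitosis, fell by 1.75. Among inhibitors of the cycle and genes of resting cells 4 of 10 rose: the antiproliferative factors BTG1 by 0.88 and TOB1 by 0.66, the retinoblastoma relative RBL2 by 0.63 and CCNG1 by 0.22, while the E2F family repressor E2F4 fell by 0.73. Without replicate 3 the counts of this list were 3 and 0, so the fall of E2F4 was not called. CDKN1A, the p21 inhibitor, read 2969, 1692 and 1345 in control and 2300.1, 2895 and 1791 at 24 h. Its groups overlapped, and it was not called (0.27, adjusted p = 0.38), but was without control replicate 1 (0.0488). In bulk RNA, fewer cells in a phase and less RNA per cell cannot be told apart.

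The apparatus that builds ribosomes fell in nearly all of its measured members. In the ribosome assembly list 35 of 38 genes were lower and 1 higher (0 higher and 30 lower without replicate 3), with a median of -0.81 and pair medians of -0.74, -0.95 and -0.78. Fibrillarin (FBL), which methylates ribosomal RNA, read 1964, 3280.4 and 2061 in control and 916, 1045 and 693 at 24 h, a change of -1.42 ± 0.11 (adjusted p = 5.5e-05). LYAR, a nucleolar growth factor, read 661, 1009.7 and 910 in control and 219.8, 266 and 243 at 24 h. No array of either group overlapped for these genes. NOP56 changed by -1.30, the pseudouridine synthase dyskerin (DKC1) by -1.25, nucleolin (NCL) by -0.82 and the GTPase GNL3 by -1.50. The called rise was HEATR1 at 0.48, whose probe sets were called in both directions. Of 13 RNA polymerase I and III genes 7 fell (0 and 2 without replicate 3), with POLR1E at -0.78, TAF1D at -0.71 and POLR1B at -0.47. Without the replicate block 15 of the ribosome assembly genes were called, 0 of them upward, and 0 of the polymerase genes.

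MYC, the transcription factor known to drive ribosome and nucleotide synthesis, read 734, 685 and 911 in control and 290, 229.6 and 227 at 24 h and 169.8, 143 and 167 at 5 h. All salt arrays lay below all control arrays at both times. At 24 h its change was -1.58 ± 0.13 (adjusted p = 6.2e-05) and at 5 h -2.16, and the difference between the times, 0.58, was called upward.

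Most genes of nucleotide and serine synthesis were lower, as were both amino acid importers among the named falls. Of 14 genes of purine and pyrimidine synthesis 13 fell, 0 rose and the median was -0.65, with 4 called without the block. DHODH, the mitochondrial enzyme of pyrimidine synthesis, read 181, 352 and 268 in control and 53, 86 and 63.4 at 24 h, a change of -1.73. The uridine kinase UCK2 changed by -1.21, and the purine enzymes PAICS, IMPDH1 and HPRT1 by -0.89, -0.85 and -0.78. The large neutral amino acid transporter SLC7A5 read 667, 448 and 471 in control and 121, 68.5 and 148 at 24 h, with a change of -2.12 ± 0.20, and the glutamine transporter SLC1A5 fell by 1.37, from 1941 ± 556 to 722 ± 82.8. SLC3A2, the heavy chain that pairs with SLC7A5, was not called (-0.05). SLC7A7, another light chain that pairs with SLC3A2, rose by 1.11, from 25.7 to 73.5. In the serine and one-carbon list 8 of 13 fell, among them PHGDH at -1.19 and PSAT1 at -1.15, which open serine synthesis, and the mitochondrial one-carbon enzymes SHMT2 at -1.07 and MTHFD2 at -1.14. AHCY, which clears S-adenosylhomocysteine, rose by 0.51.

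**Figure D3:**
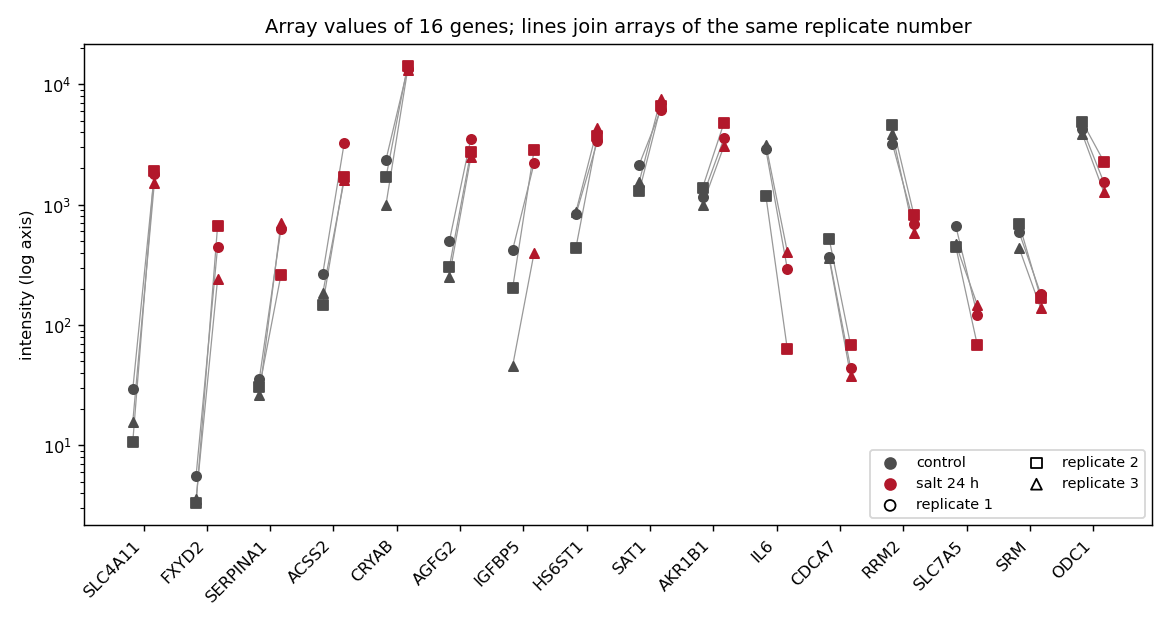
Intensity on a log axis of 16 genes on the 3 control (grey) and 3 salt 24 h (red) arrays, with grey lines joining arrays of the same replicate number. For all 16 genes the lines of the 3 pairs run in the same direction, which was a condition for naming all of them but SRM. IGFBP5 is the gene whose groups overlap, since replicate 3 is low in both.

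Polyamine genes were looked up after ODC1 and SAT1 had been named among the brightest genes, so the set was chosen with values in view. ODC1, the first enzyme of polyamine synthesis, read 4293, 4864 and 3848 in control and 1529, 2279 and 1266 at 24 h. SAT1, which acetylates spermidine and spermine for breakdown or export, read 2155, 1291 and 1550.1 in control and 6112, 6555 and 7622 at 24 h. The arrays did not overlap for either gene, and they moved in opposite directions: ODC1 fell by 1.39 ± 0.12 (adjusted p = 6.2e-05) and SAT1 rose by 2.04 ± 0.17 (adjusted p = 6.7e-05). The other synthetic enzymes fell: spermidine synthase SRM stood at -1.70, AMD1, which makes decarboxylated S-adenosylmethionine, at -1.15, and spermine synthase SMS at -0.93. AZIN1, which shields ODC1 from antizyme, fell by 1.14 from values of 1659.8, 1624 and 1624 to 667, 821 and 719.5. Antizyme OAZ1 was not called (-0.08), OAZ2 rose by 0.54 and the polyamine oxidase PAOX by 0.32 (adjusted p = 0.0497).

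Genes of translation, RNA processing and protein turnover held more falls than rises. Of 45 splicing and hnRNP genes 27 fell and 3 rose (1 and 16 without replicate 3), with a median of -0.40. The cold-inducible RNA-binding proteins CIRBP and RBM3 changed by -1.09 and -1.04, the spliceosome protein SNRPA1 by -1.18, HNRNPAB by -0.84, and the splicing factors SRSF3 and SRSF7 by -1.03 and -0.98. Of 30 nuclear transport genes 17 fell, such as RANBP1 at -1.23, the importin IPO7 at -1.05 and the exportin CSE1L at -1.03, and 2 rose (0 and 11 without replicate 3). Without the block 11 splicing and 5 nuclear transport genes were called lower. Among aminoacyl-tRNA synthetases and their partners 11 of 19 fell and 2 rose (0 and 9 without replicate 3), with EPRS1 at -0.98, YARS1 at -0.96 and the complex subunit EEF1E1 at -1.20. Of 34 translation factors 14 fell and 2 rose (2 and 8 without replicate 3), EIF1, which selects start codons, fell by 0.61, and the paralogous helicases EIF4A1 and EIF4A2 went in opposite directions, at -1.07 and 0.69. Proteasome genes had 15 of 28 lower, 1 higher and a median of -0.27, but 0 higher and 3 lower calls without replicate 3. Its members with the smallest p, PSMD14, PSMA5 and PSMA7, changed by -0.51, -0.55 and -0.45. In the endoplasmic reticulum 16 of 38 fell and 5 rose (1 and 9 without replicate 3): MANF, a secreted stress factor, changed by -1.15, CRELD2 by -0.69, the translocon partner SSR3 by -0.59, the chaperone HSPA5 by -0.51 and the collagen chaperone SERPINH1 by -0.81, while the collagen lysyl hydroxylase PLOD2 rose by 0.55.

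Mitochondrial lists held more falls than rises. In protein import 15 of 25 were lower, 0 higher and the median was -0.53, with the inner membrane import gene TIMM13 at -1.38, the pore gene TOMM40 at -1.19, the cochaperone GRPEL1 at -0.65 and the matrix chaperonin HSPD1 at -0.86. Of 64 mitochondrial ribosome genes 25 fell and 3 rose, with a median of -0.23, MRPL15 at -1.40 and MRPL55 at -0.78. Without replicate 3, 8 were called lower. MRPS6 ran against its list: it read 3151, 2326 and 1710.2 in control and 7514, 7204 and 8108 at 24 h, a rise of 1.70 ± 0.16 (adjusted p = 0.0001). RefSeq's bovine annotation (ARS-UCD2.0) places SLC5A3, the sodium-coupled inositol transporter gene, within the span of MRPS6, so which transcript this probe set reads cannot be told apart. Of 56 respiratory chain and ATP synthase genes 16 (28.6%) fell and 2 (3.57%) rose, with a median of -0.17. Of all genes 20.1% fell and 19.9% rose. The proton channel subunits of ATP synthase ATP5MC1 and ATP5MC3 changed by -0.88 and -0.62, and the complex III subunit UQCRB by -0.57. Without replicate 3, 0 genes of this list were called higher and 7 lower. In the citric acid cycle 6 of 19 (31.6%) fell (1 and 2 without replicate 3), with IDH3A at -1.06 and MDH2 at -0.48. Pyruvate carboxylase (PC), which feeds the cycle, rose by 1.25, from 378 ± 70.2 to 923 ± 193.

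Glycolytic enzymes and lactate transporters included 9 falls and 2 rises among 20 genes (1 and 6 without replicate 3). The lactate transporter SLC16A1 read 676, 705 and 475 in control and 235, 264 and 150.4 at 24 h, a change of -1.46 ± 0.097 (adjusted p = 2.9e-05). No values overlapped between the groups, and SLC16A3, its counterpart in glycolytic cells, fell by 1.19. TPI1 changed by -0.98 and PGAM1 by -0.66, while the aldolase ALDOC rose by 1.18, and LDHA and ENO1 were not called (-0.05 and -0.02) near the top of the range. In the hypoxia list 6 of 15 (40%) were higher and 3 (20%) lower, beside 19.9% and 20.1% of all genes. BNIP3, a receptor for the removal of mitochondria, read 1941, 3456 and 3100.5 in control and 864, 932 and 820.4 at 24 h and fell by 1.64, while its relative BNIP3L rose by 0.66. NDRG1 fell by 0.95, and ANGPTL4, a secreted inhibitor of lipoprotein lipase, rose by 1.53.

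Cholesterol genes rose nearly throughout. In the cholesterol synthesis and uptake list 19 of 21 were higher and 0 lower, with a median of 0.73 and pair medians of 0.92, 0.87 and 0.48. Of these, 5 were called without the replicate block. TM7SF2 and DHCR7, sterol reductases of the late pathway, rose by 1.78 and 1.48. Squalene synthase (FDFT1) rose by 1.21, from 535 ± 128 to 1317 ± 516, and CYP51A1 by 1.03. SREBF1, the sterol-responsive transcription factor gene, rose by 0.83 and its retention factor INSIG1 by 1.07, while SREBF2 and SCAP were not called (0.13 and -0.22). The cholesterol exporters of the lysosome, NPC1 and NPC2, rose by 0.95 and 0.51. Both enzymes that make cytosolic acetyl-CoA rose. ACSS2, which uses acetate, read 265, 147 and 183 in control and 3259, 1709 and 1607 at 24 h, a rise of 3.32 ± 0.18 (adjusted p = 1.5e-05) with 5 h values of 150.3, 138 and 164. ACLY, which uses citrate, rose by 1.01, the fatty acid synthase FASN by 0.50, and the desaturases FADS2 and SCD by 1.07 and 0.83. In this fatty acid list 8 of 19 (42.1%) rose and 4 (21.1%) fell (5 and 1 without replicate 3), beside 19.9% and 20.1% of all genes. AGPAT5, an acyltransferase that makes phosphatidic acid, read 392, 640.4 and 509 in control and 119, 164 and 111 at 24 h, a change of -1.84 that its 4 other tested probe sets shared, with changes of -1.71 to -1.90.

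Lysosomal genes rose broadly. Of 35 hydrolases and membrane proteins 29 were higher and 0 lower, with a median of 0.62 and pair medians of 0.33, 0.77 and 0.74. Without replicate 3, 14 of them were called, and without the block 8. The membrane protein SCARB2 rose by 1.07, from 2782 ± 822 to 5688 ± 588, and LAMP2 by 0.89. The acid lipase LIPA rose by 0.83 and prosaposin (PSAP), which activates sphingolipid hydrolases, by 0.74, from 1645 ± 377 to 2727 ± 329. CLN3 rose by 1.14, the heparan-degrading SGSH by 1.03, acid sphingomyelinase (SMPD1) by 1.01, and cathepsins B and K (CTSB and CTSK) by 0.74 and 0.53. Of the 16 genes of the vacuolar proton pump, which acidifies lysosomes, 8 rose and 0 fell, with ATP6V0A1 at 0.94, ATP6V0E1 at 0.53 and the catalytic subunit ATP6V1A at 0.53, and 4 were called without the block. In the autophagy list 11 of 25 rose, 1 fell (5 and 1 without replicate 3) and 0 were called without the block: GABARAPL1, which coats autophagosomes, rose by 1.10, the initiating kinase ULK1 by 0.80 and the cargo receptor optineurin (OPTN) by 0.64. TFEB and TFE3, transcription factors of lysosomal genes, were not called (0.09 and 0.05). SNX10, a sorting nexin of endosomes, read 829, 814 and 871 in control and 339, 333 and 306 at 24 h and fell by 1.32 ± 0.097 (adjusted p = 4.2e-05).

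**Figure D4:**
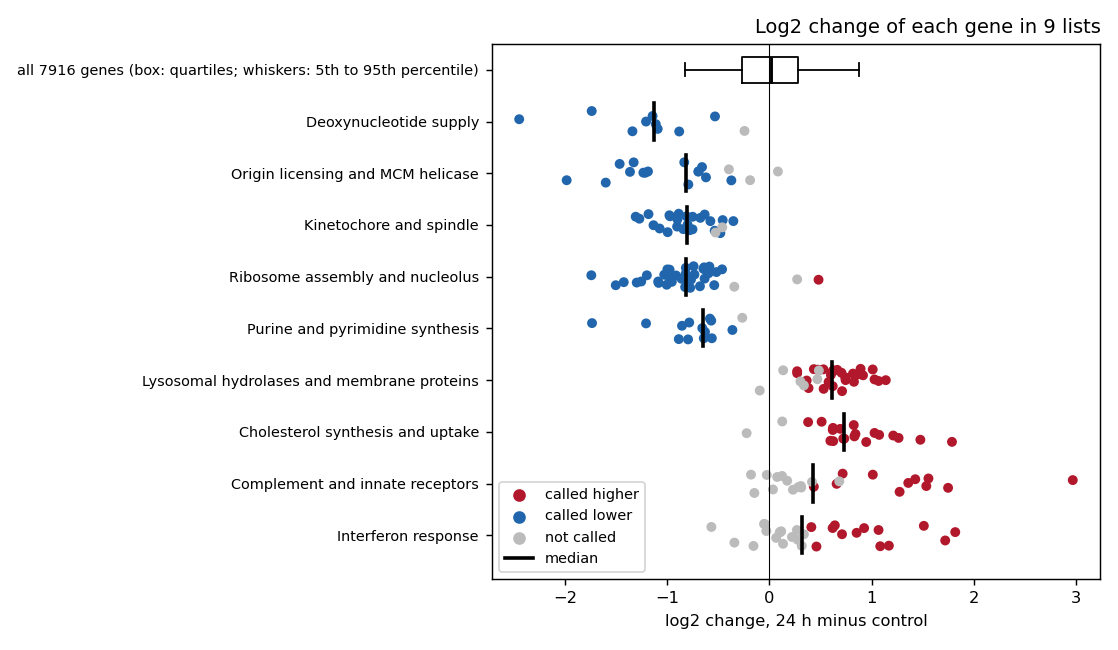
Log2 change (24 h minus control) of each gene in 9 gene lists, in red where called higher, blue where called lower and grey where not called; black bars are list medians, and the box shows the quartiles and the 5th and 95th percentile of all 7916 genes. Deoxynucleotide genes have a median of -1.13, and cholesterol genes one of 0.73.

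The matrix list of proteoglycans and glycoproteins held 19 rises and 5 falls among 41 genes, with a median of 0.39. Without replicate 3 the counts were 11 and 3, and without the block 3 and 1. Aggrecan (ACAN), which holds water in the disc, read 2139, 1146 and 497 in control and 4026, 3452 and 1506 at 24 h. Its groups overlapped because both replicate 3 arrays were low, yet each pair rose, by 0.91, 1.58 and 1.57, and the fitted change was 1.35 ± 0.17 (adjusted p = 0.00041, and 0.187 without the block). Among the small leucine-rich proteoglycans LUM rose by 1.07, PRELP by 0.97, ASPN by 1.20 and DCN by 0.57, from 8183 to 12170. Matrix Gla protein (MGP), an inhibitor of mineralisation, rose by 2.17, from 339 ± 130.5 to 1633 ± 758, tenascin X (TNXB) by 1.67 and the membrane proteoglycan glypican GPC1 by 0.77, while GPC4 fell by 1.03. The link protein HAPLN1, which ties aggrecan to hyaluronan, changed by -0.46, and elastin (ELN) by -0.63.

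Among 17 collagen genes 2 rose and 2 fell (2 and 0 without replicate 3). That was 11.8% each way, below the 19.9% and 20.1% of all genes. COL12A1, a collagen that decorates fibrils, read 1383, 852 and 1055 in control and 3501, 3360.1 and 3949 at 24 h, a rise of 1.73 without overlap, and COL27A1 rose by 1.27. COL2A1 read 329.7, 177 and 40 in control and 221, 140.5 and 29.1 at 24 h; its groups overlapped, and it was not called (-0.39, adjusted p = 0.1), while the fit to only the control and 24 h arrays called it lower (0.0417). COL1A1 had a change of -0.32 with adjusted p = 0.046 and was not called without the block (0.837) or without replicate 1 (0.207) or 3 (0.124). In the sugar chain list 6 of 23 genes (26.1%) rose and 7 (30.4%) fell (3 and 4 without replicate 3). HS6ST1, which adds sulfate to heparan sulfate, read 831, 438 and 872 in control and 3372, 3754 and 4336 at 24 h and was among the largest rises of the brightest 5% of probe sets, at 2.45 ± 0.26 (adjusted p = 0.00018). CHSY1, which extends chondroitin chains, changed by -0.96, the sulfotransferase CHST2 by -1.22, UGDH, which makes their uronic acid precursor, by -0.80, and the hyaluronan synthase HAS2 by -0.73.

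Matrix proteases and inhibitors divided, with 8 of 30 higher and 9 lower (5 and 6 without replicate 3). These shares of 26.7% and 30% stood beside 19.9% and 20.1% of all genes. SERPINA1, the secreted inhibitor of elastase, read 35.9, 30.3 and 26.2 in control and 628, 260.2 and 699 at 24 h. All 24 h values lay above control, with replicate 2 less than the others, and the change was 3.43 ± 0.25 (adjusted p = 4.2e-05). The inhibitors cystatin C (CST3), TIMP3 and TIMP2 rose by 1.35, 0.73 and 0.64, although CST3 probe sets were called in both directions. The serine protease HTRA1 rose by 0.86 and the gelatinase MMP2 by 0.66. The plasminogen activator PLAU and its receptor PLAUR changed by -0.91 and -0.70, the aggrecanase ADAMTS4 by -0.87, stromelysin MMP3 by -0.62 and ADAM12 by -1.42. ADAMTS5, the other main aggrecanase, rose by 0.57 from 28.9 to 50.3.

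The adhesion list showed no more calls than all genes (19.9% higher, 20.1% lower), with shares of 19.5% and 12.2%: 8 of 41 were higher and 5 lower (6 and 1 without replicate 3). The collagen-binding integrin ITGA10 read 135, 108 and 176 in control and 1055, 518 and 1024 at 24 h and rose by 2.46 ± 0.14. ITGB3 read 1009, 844 and 1066 in control and 3236, 3536 and 3399 at 24 h and rose by 1.79, and its partner ITGAV by 0.83. ITGB1, the common beta chain, was not called (-0.08). Of 47 actin and myosin genes 20 fell and 2 rose (2 and 11 without replicate 3), with a median of -0.24: the smooth muscle actin ACTA2 changed by -1.55, the tropomyosin TPM3 by -0.67, CSRP2 by -1.39 and FHL2 by -0.88, while FHL1 rose by 1.0. Of 15 tubulin and motor genes 11 fell (3 and 7 without replicate 3), with TUBA4A at -1.63, TUBA1A at -1.34, TUBG1 at -0.97 and the dynein light chain DYNLL1 at -0.66, and 3 rose. Without the block 6 actin and 4 tubulin genes were called lower. Tubulin and actin paralogues are similar in sequence, so single members are uncertain. The summed intensity of 5 skeletal muscle markers was 924 to 1098 in control and 2148 to 3504 at 24 h, carried by creatine kinase (CKM), which read 664, 582 and 678 in control and 3280.2, 1933 and 2742 at 24 h; the muscle factor MYOD1 was 8.7 or less on every array, and the muscle actin ACTA1 read 267, 287 and 366 in control and 176, 161 and 258 at 24 h.

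**Figure D5:**
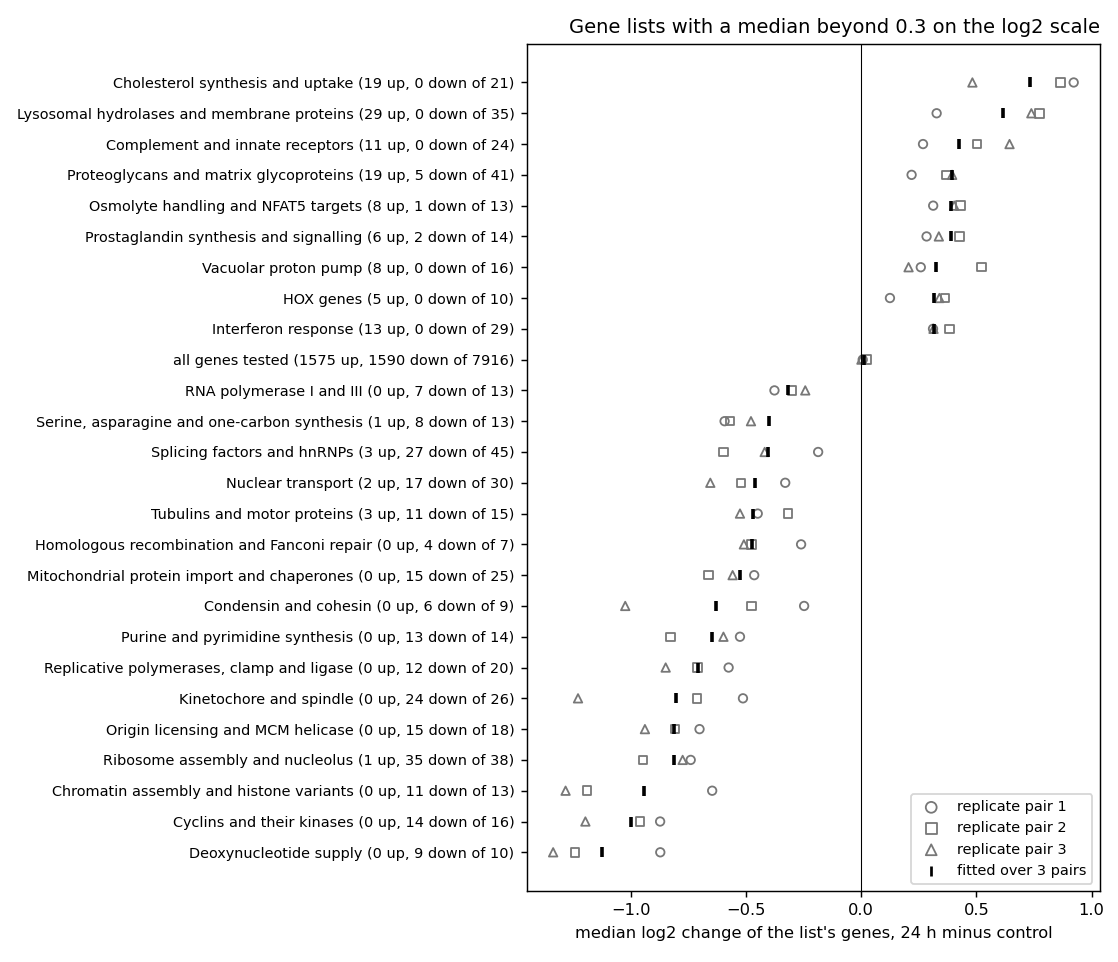
Median log2 change (24 h minus control) of each gene list with a fitted median beyond 0.3, with black ticks for the fit over 3 pairs and open markers for each replicate pair; labels give the genes called up and down. All pair medians of a list lie on the same side of 0, and all genes tested lie at 0.012.

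Of 40 genes of cytokines, chemokines and their receptors 15 (37.5%) rose and 6 (15%) fell (8 and 5 without replicate 3). All genes stood at 19.9% and 20.1%, so the share of falls was below theirs. Interleukin 6 (IL6) read 2884, 1189 and 3158 in control and 292, 62.7 and 404 at 24 h. Replicate 2 was the lowest in both groups, the groups did not overlap, and the change of -3.36 ± 0.35 (adjusted p = 0.00017) was the largest fall of any probe set. At 5 h IL6 read 1027, 931 and 904, below all control arrays and above all 24 h arrays. The chemokine CXCL12 changed by -0.74, and its receptors CXCR4 and ACKR3 by -1.05 and -0.41. The neutrophil chemokines GRO1, CXCL3 and CXCL5 rose by 1.89, 1.18 and 0.52, IL18 by 0.66 and the scavenging chemokine receptor ACKR4 by 2.98, with 24 h values of 285, 61.3 and 402. NFKBIA and NFKBIZ, regulators of NF-kB that NF-kB induces, rose by 1.18 and 0.94. IL1B and TNF were dim and not called (0.02 and 0.12).

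In the list of complement and innate receptor genes 11 of 24 rose, 0 fell and 13 were not called, with a median of 0.43. The C5a receptor relative C5AR2 read 152, 108 and 258 in control and 1338, 1171 and 1688 at 24 h, a rise of 2.97 ± 0.15 (adjusted p = 1e-05). The proteases C1S and C1R rose by 1.53 and 1.36, their inhibitor SERPING1 by 1.27 and factor B (CFB) by 1.55. Complement C3 was not called (-0.18). The lipopolysaccharide receptor CD14, also a leukocyte marker, read 99.2, 83.4 and 104 in control and 294, 233 and 329.8 at 24 h. It carried a rise in the summed intensity of 7 leukocyte markers from 240 to 255 in control to 434 to 462 at 24 h. The other leukocyte markers read 56.1 or less on all 6 arrays, with CSF1R and TYROBP at control means under 16. Ceruloplasmin (CP), a plasma iron oxidase, read 104, 83.6 and 85.8 in control and 1062, 309.6 and 1121 at 24 h. Its 24 h arrays all lay above control, with replicate 2 lowest, and the rise was 2.78 ± 0.30 (adjusted p = 0.0002).

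Interferon-responsive genes rose in 13 of 29 with 0 called lower, and a median of 0.32. The antiviral GTPase MX1 read 62.6, 52.9 and 84.1 in control and 227, 276 and 318 at 24 h and rose by 1.82 ± 0.14. The interferon signalling factors IRF9, STAT2 and IRF7 rose by 1.72, 0.85 and 1.17, and the ubiquitin-like modifier ISG15 by 1.51 from 16 to 78. Other genes of the list were not called, among them RSAD2 at 0.28, MX2 at -0.05 and IFIT2 at -0.16. Of 17 antigen presentation genes 6 (35.3%) rose and 3 (17.6%) fell (6 and 0 without replicate 3), beside 19.9% and 20.1% of all genes. The rises included the class I genes BOLA and B2M at 1.10 and 0.39, the class II chaperone BOLA-DMA at 1.01 and the IgG receptor FCGRT at 0.71. The falls included the immunoproteasome subunit PSMB9 at -0.65. BOLA genes are similar in sequence, so single members are uncertain.

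Prostaglandin genes had 6 rises and 2 falls among 14 (5 and 1 without replicate 3), with a median of 0.39. PTGES, which makes prostaglandin E2, read 11.5, 2.9 and 6.8 in control and 122, 95.8 and 130.3 at 24 h, a rise of 2.52 ± 0.14 (adjusted p = 1.5e-05) from the floor. The cyclooxygenases PTGS1 and PTGS2 rose by 2.65 and 0.67, from 149 to 897 and from 1965 to 2934. AKR1C4, an aldo-keto reductase annotated here by that human name, read 15.3, 3.4 and 21.9 in control and 116, 94.9 and 266 at 24 h and rose by 2.50. The prostaglandin F receptor PTGFR fell by 0.85.

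Redox genes held more rises than falls, with 16 of 46 higher and 9 lower (12 and 4 without replicate 3). These shares of 34.8% and 19.6% stood beside 19.9% and 20.1% of all genes. Mitochondrial superoxide dismutase (SOD2) rose by 1.53, from 674 ± 90.3 to 1995 ± 433, the glutathione peroxidase GPX1 by 0.99 and the aldehyde dehydrogenase ALDH2 by 0.82. Thioredoxin reductase TXNRD1, peroxiredoxin PRDX1 and heme oxygenase HMOX1 changed by -0.77, -0.45 and -1.02, and NQO1, a classic target of NRF2, was not called (0.01). The stress-induced nuclear protein gene NUPR1 read 366, 134 and 284 in control and 2423, 2147 and 2498 at 24 h, a rise of 3.20 ± 0.24, with 1065, 419.6 and 1345 at 5 h.

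Transcription factors and secreted regulators were among the named genes. Of 26 immediate early genes 8 (30.8%) rose and 5 (19.2%) fell (5 and 2 without replicate 3), beside 19.9% and 20.1% of all genes. ATF3, the nuclear receptor NR4A2 and MAFF rose by 1.99, 1.72 and 1.22, and JUN and FOSL1 changed by -0.87 and -0.82. Of 10 HOX genes, which mark position along the body axis, 5 rose and 0 fell (3 and 0 without replicate 3), and 1 was called without the block. HOXB3 read 33.8, 28.5 and 46.9 in control and 182, 209 and 314 at 24 h and rose by 2.24 without overlap, its neighbour HOXB4 rose by 1.05, and HOXA4 by 0.68. The Wnt antagonist DKK1 read 51.7, 34.8 and 49.9 in control and 313, 516 and 479 at 24 h and 586, 189 and 617 at 5 h, so all salt arrays lay above all control arrays at both times. Follistatin (FST), which binds activin, read 2830.5, 2089.9 and 1705 in control and 758, 818 and 694 at 24 h and changed by -1.50, and the activin subunit INHBA changed by -0.53. The insulin-like growth factor binding protein IGFBP5 read 421, 203 and 45.7 in control and 2217, 2863 and 400 at 24 h. Replicate 3 was low in both groups, so the groups overlapped; the pairs rose by 2.35, 3.72 and 2.75, the fitted rise was 2.94 ± 0.21 (adjusted p = 3.9e-05), and without the block the adjusted p was 0.109. The growth factor FGF10 rose by 2.44, from 69.6 ± 41.8 to 497 ± 335, and the lymphatic growth factor VEGFC fell by 0.73.

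Without the replicate block fewer members were called in each of the 56 lists. Calls also fell over all 18012 probe sets tested, from 3302 to 771 higher and from 3150 to 779 lower. Fewer calls are thus not particular to any list, and shares over all genes were not computed for this setting. The counts called higher and lower were then 4 and 1 for the osmolyte list, 4 and 1 for ion and water transport, 0 and 5 for cyclins, 8 and 0 for interferon response, 6 and 0 for complement, and 5 and 3 for cytokines. They were 5 and 2 for the redox list, 3 and 3 for proteases and inhibitors, 3 and 0 for adhesion, 1 and 3 for glycolysis, 0 and 3 for serine and one-carbon synthesis, and 0 and 5 for the endoplasmic reticulum. Other lists gave 0 and 6 for tRNA synthetases, 1 and 4 for translation factors, 2 and 4 for the mitochondrial ribosome, 0 and 8 for mitochondrial import, 1 and 2 for the citric acid cycle, 0 and 3 for the respiratory chain, 1 and 2 for hypoxia and 0 and 1 for the proteasome. There were 4 and 3 for chaperones, 3 and 1 for fatty acid synthesis, 2 and 4 for sugar chains, 2 and 0 for collagens, 4 and 0 for antigen presentation and 4 and 0 for prostaglandins. The last counts were 1 and 0 for cycle inhibitors, 5 and 1 for immediate early genes, 1 and 2 for growth factors, 1 and 1 for the TGF-beta list, 1 and 1 for the Wnt list, 1 and 2 for the p53 list, 2 and 1 for S100 and annexin genes, 1 and 2 for amino acid transporters and 0 and 1 for condensin and cohesin.

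The remaining lists showed called changes in both directions or few calls. The growth factor, TGF-beta and p53 lists below had 19.2% to 22.2% of members higher and 18.5% to 19.2% lower, near the 19.9% and 20.1% of all genes. Of 37 growth factor and receptor kinase genes 8 rose and 7 fell (6 and 4 without replicate 3). Of 27 TGF-beta and BMP pathway genes 6 rose and 5 fell, with the receptor TGFBR2 at 0.87. Of 24 Wnt, Notch and Hedgehog genes 2 (8.33%) rose and 4 (16.7%) fell (1 and 1 without replicate 3), both below the shares of all genes. The Hedgehog signal transducer SMO stood at 0.42 and the receptor FZD4 at -1.07. Of 26 p53 target and apoptosis genes 5 rose and 5 fell (2 and 2 without replicate 3): the DNA damage sensor XPC stood at 0.91 and the death effector BAK1 at -1.0. Of 7 clock genes 2 rose, PER2 by 0.82 and RORA by 0.69, and 0 fell (1 and 0 without replicate 3). Of 12 metallothionein and iron genes 3 (25%) rose, with the metalloreductase STEAP2 at 0.77, and 1 (8.33%) fell. Of 19 S100 and annexin genes 6 (31.6%) rose and 5 (26.3%) fell (4 and 2 without replicate 3), with ANXA3 at -1.46 and ANXA11 at 0.73. Of 12 amino acid transporter genes 4 (33.3%) rose and 4 (33.3%) fell (2 and 4 without replicate 3).

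The other marker lists gave these values. The fat cell marker FABP4 fell by 0.66, from 989 ± 192 to 615 ± 77.4, and LPL rose by 0.68, while ADIPOQ had means under 16. The basal keratin KRT5 rose by 0.50, from 434 ± 17.6 to 623 ± 66, with KRT14 and EPCAM at means under 16. The bone sialoprotein IBSP read 5834, 5941 and 6016 in control and 5999, 6709 and 5719 at 24 h and was not called (0.05), while BGLAP and DMP1 were listed at 0 on some arrays. Of the matrix markers, COMP and THBS4 rose by 0.39 and 0.91, and of the endothelial ones, TEK and EMCN by 0.49 and 0.52 from 16.1 to 29.7 and from 19.6 to 35.3. The other 3 endothelial genes tested were not called: KDR went from 28.8 to 18.8, PECAM1 from 72.5 to 73.1 and CDH5 from 31.2 to 31. The part of other cell types in these results was not tested.

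Further large rises were S100G, a calcium-binding protein of absorptive epithelia, which read 0.1, 5.6 and 1.6 in control and 151, 88.1 and 322 at 24 h, and LRRN1, a leucine-rich membrane protein, which read 35.3, 9.3 and 26.2 in control and 388, 188 and 393 at 24 h. Both were at or near the floor in control, so their changes of 3.30 and 3.09 are understated. AGFG2 read 497, 302 and 253 in control and 3536, 2743 and 2483 at 24 h, a rise of 3.04 ± 0.18 (adjusted p = 1.7e-05), and the secreted protein gene CCDC3 read 756, 345 and 432 in control and 2957, 1899 and 3207 at 24 h, a rise of 2.40. For these 4 genes all 24 h values lay above all control values.

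Against the 5 h arrays, 3768 of 7916 genes (47.6%) differed at 24 h in either direction. Side by side, the changes from the shared controls at 5 h and 24 h were 0.13 and -2.45 for RRM2, 0.10 and -1.42 for FBL, -0.33 and 3.32 for ACSS2, and 0.40 and 1.67 for AKR1B1. SLC38A2 stood at 0.88 at 5 h and 0.31 at 24 h. DKK1 stood at 2.81 and 2.86, and KCNK5 at 2.46 and 2.73, and for both the difference between the times was not called (adjusted p = 0.921 and 0.138). SLC38A2 and MYC were nearer to control at 24 h than at 5 h, and for both that difference was called.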

How the data were processed

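RNA of 9 cultures was hybridised to bovine Affymetrix arrays. The authors deposited intensities on a linear scale, and per the submitters' processing notes they come from PLIER, run in Affymetrix Expression Console, of versions not given in the sources used. Of 24128 probe sets, 112 manufacturer controls were left out, as were those with a mean below the 25th percentile, which left 18012. Symbols came from the platform annotation: 13292 probe sets carry 1 symbol and 86 carry several and were not named.

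Values as log2(intensity + 16) were fitted with limma 3.58.1 in R 4.3.3 (lmFit, eBayes with an intensity trend) to all 9 arrays, with group and replicate number as terms and Benjamini-Hochberg adjustment over all probe sets. The fit was tested on simulated data. The pairing follows the shared numbers of the labels, which do not say what arrays of a number have in common. Same-numbered control and 24 h arrays deviated together from their group means (correlations of 0.61, 0.71 and 0.90). Numbers 1 and 2 also did so crosswise, at 0.53 for control 2 with 24 h array 1 and 0.33 for control 1 with 24 h array 2. Crosswise pairs that held number 3 gave -0.77 to -0.56.

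The members, gene lists and tests were chosen with earlier results of these data known. Among called genes changed the same way in every pair and not dim, the text names the 14 largest changes in each direction, the 8 largest among the brightest 5% and the 6 with the smallest p. It names up to 3 called members of each list with the smallest p, and a fixed set of osmotic, cycle and disc genes. Other list members were named after their values were seen. Alternatives left out single arrays, replicate numbers, the block, the filter or the 5 h arrays, or changed the pseudocount, scaling, variance trend or size threshold.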

Additional observations from a re-analysis of the deposited data

Results flagged for a closer look

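The 24 h and 5 h changes from the shared controls differed, by the limma test of 24 h minus 5 h itself (adjusted p under 0.05 over all probe sets), for 46 of the 55 named genes. Each value in parentheses is that difference on the log2 scale, positive where 24 h was higher than 5 h.

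Transport and calcium-binding genes were higher at 24 h than at 5 h, namely SLC4A11 (4.35), FXYD2 (4.14), S100G (3.19) and AQP1 (1.40). So were the secreted, membrane and metabolic genes SERPINA1 (3.45), ACSS2 (3.65), LRRN1 (2.98), AGFG2 (2.39), ACKR4 (2.47), C5AR2 (3.06), IGFBP5 (3.08), CP (2.79) and NUPR1 (1.46). The chaperone, osmolyte, kinase and matrix genes CRYAB (2.43), AKR1B1 (1.27), SGK1 (0.86), HSPB1 (0.40) and ACAN (1.46) were also higher at the later time. HSPB1 was not called against control at 24 h and is listed for the difference between the times alone.

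Among bright genes and those with the smallest p, HS6ST1 (1.64), CCDC3 (2.55), SAT1 (1.51) and PTGES (2.23) were higher at 24 h than at 5 h, and BNIP3 (-1.82), FST (-1.20), FBL (-1.52), PCLAF (-1.71), ODC1 (-1.18), SLC1A5 (-1.16), SLC16A1 (-1.72) and SNX10 (-1.31) were lower.

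Genes of DNA replication and the cell cycle were lower at 24 h than at 5 h: CDCA7 (-2.28), RRM2 (-2.58), UHRF1 (-2.29), CDC6 (-1.62), POLE2 (-2.03), MYBL2 (-2.07), CHAF1B (-1.37), FBXO5 (-1.60) and DCTPP1 (-1.84). The same held for genes of amino acid import, pyrimidine synthesis, ribosome assembly and phospholipid synthesis, SLC7A5 (-2.04), DHODH (-1.53), LYAR (-1.94) and AGPAT5 (-1.81), and for the cytokine IL6 (-2.16). SLC38A2 (-0.56) was lower at 24 h than at 5 h while above control at both times, and MYC (0.58) was higher at 24 h than at 5 h while below control at both. The time in culture of the 3 groups was not matched by label, so time and length of exposure cannot be told apart.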

How the results depend on the processing

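No called change reversed, while the number of calls moved. Of the 6452 probe sets called, 0 changed sign in any setting that tested them, whether or not the call was kept. Of 1141 recomputed changes of the 55 named genes 0 reversed. Changing only the block, the filter, the variance trend or the 5 h arrays leaves the estimated change of a probe set as it was. A reversal was therefore possible only in settings that changed the pseudocount or scaling, or left out control arrays, 24 h arrays or replicate numbers. Of the called probe sets, 3274 higher and 3130 lower had all 3 pairs in 1 direction. For these, leaving out a replicate number could not reverse the change. The named genes picked by size, brightness or p had to meet that condition, so their lack of reversals was partly fixed in advance. Without the replicate block 771 probe sets were higher, 779 lower and 2551 different between 24 h and 5 h, in place of 3302, 3150 and 7884, and all 1550 of the former calls were among the latter. Leaving out arrays or replicate numbers gave 1721 to 3641 higher, 1606 to 3416 lower and 5261 to 8201 different between the times. The lowest counts came without replicate 3, and without control replicate 3 there were 2169 higher and 1985 lower. A further demand for a 2-fold change left 608 and 427. Centring each array on its median gave 2678 higher and 3794 lower, with a median change of -0.05 over all probe sets. The remaining settings stayed within 1.5 times. The fit without 5 h arrays has no value for the difference between the times. Of the named genes' values 25 lost and 6 gained a call, in IGFBP5, SLC38A2, SGK1, AQP1, ACAN and COL1A1, and in COL2A1, CDKN1A and HSPB1. Among these 55 genes the block changed no other call. Further list members named in the text are not in this count, and many of them lost their call without the block. In the autophagy list and the RNA polymerase I and III list 0 genes were then called. All 25 lists with a median beyond 0.3 kept its sign in all 21 settings, but they were picked by the size of that median. The number of arrays and the floor of dim probe sets limit precision.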
